A study of Homo sapiens with 3 samples.

Results

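This account describes the transcriptome of untreated RH30 cells, read on 1 of the 3 Affymetrix arrays of a study of an agent aimed at the MYCN gene. The agent is a PNA (peptide nucleic acid), a synthetic DNA mimic whose sugar-phosphate chain is replaced by peptide-like units. RH30 is an established human cell line of alveolar rhabdomyosarcoma, a childhood tumour with features of skeletal muscle precursors, and all cells were grown in RPMI medium with 10% foetal bovine serum. The other arrays hold RNA of RH30 cells given 10 µM of the anti-MYCN PNA or 10 µM of a mutated PNA for 12 h, and they were not compared with the untreated array. The labels of the untreated array disagree with each other: its title and its treatment text say untreated, while its source name says mutated PNA. Genes were taken from the probe sets that name 1 gene, each gene was represented by its brightest probe set, and the 11963 genes so measured were ranked by signal within the array.

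Skeletal muscle identity is set by the bHLH factors MYOD1, MYF5, MYOG and MYF6, which bind E-boxes together with E proteins and turn on the genes of the contractile apparatus as myoblasts leave the cell cycle and fuse. Alveolar rhabdomyosarcoma typically carries a fusion of the DNA-binding part of PAX3 or PAX7 with the activation domain of FOXO1, and RH30 is known as a PAX3-FOXO1 line. The fusion protein is known to drive MYOD1, MYCN, FGFR4, ALK, CXCR4 and other genes, while the cells go on dividing and complete muscle differentiation poorly.

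Each value is a MAS5 signal, a linear and unitless brightness of a probe set, from 1 array and hence without replicate error or test. Gene signals ran from 0.2 to 29588 with a median of 173. A gene was placed below the floor when its signal was under 23.4, the 25th percentile of gene probe sets pooled over the 3 arrays, and 22.1% of all genes lay there. The brightest 25% of genes began at a signal of 706, and the top 1.00%, 120 genes, at 11335. Brightness depends on the probes as well as on the transcript, so the order of 2 genes by signal is not their order by abundance. Among the 4310 genes with 2 or more probe sets, the brightest exceeded the second by a median of 2.11-fold and by more than 11.6-fold in the widest 10% of genes. A second probe set also read at or above the floor for 97.2% of such genes in the brightest 25%, but for 43.3% of those whose best signal lay between the floor and 117. In whole-culture RNA, fewer cells with a transcript and less transcript per cell cannot be told apart.

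The 6 markers chosen for the line were all above the floor. MYOD1, the factor that commits cells to muscle, read 6715 and was brighter than 97.7% of genes. MYCN, a MYC-family factor, read 3313 (brighter than 94.5%), and FGFR4, a fibroblast growth factor receptor of muscle precursors, read 3191 (94.3%). DES, the muscle intermediate filament desmin, read 911 (79.2%), MYOG, the factor of terminal differentiation, 748 (76.0%), and CDH15, the M-cadherin of myoblasts, 492 (68.1%). The probe sets of a gene did not always give the same picture: those of FGFR4 read 3191 and 1025.5 and those of CDH15 492 and 361, but those of MYCN read 3313, 55.3 and 8.2 and those of DES 911 and 2.7. The high place of MYCN and DES thus rests on 1 probe set each, and MYCN stood above 37.7% of genes by its median probe set.

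Markers of cell types that a muscle tumour line should lack were read as a reference. Of 79 measured markers of leukocytes, erythroid cells, hepatocytes, epithelium, endothelium, pancreas, neurons and glia, melanocytes, kidney and thyroid, and adipocytes, 44 (55.7%) lay below the floor, against 22.1% of all genes, and their median was 19.1. Only 1 was in the brightest 25%: TUBB3, the neuronal beta-tubulin, with 7071 and 5951 from its probe sets. Both carry a suffix for possible cross-hybridisation, and without such probe sets 0 of 54 measured markers were in the brightest 25%. After TUBB3, the highest were GAD1 at 203, MAP2 at 184 and the leukocyte integrin ITGB2 at 133. Leaving out neurons and glia, the highest of these markers was ITGB2, and 76 of the 153 measured genes of the 7 muscle lists described here (49.7%) read no higher than it, close to the 46.4% of all genes. Below, a signal under about 133 is called within the range of the other cell types. Another 27 measured markers, of fibroblasts and matrix, smooth muscle, and bone and cartilage, were counted apart because mesenchymal cells can share them, and 6 (22.2%) were in the brightest 25% and 4 below the floor. The 6 were FN1 (fibronectin) at 5685, SPARC at 4866, SOX9 at 3102.5, COL2A1 at 2061, COL5A1 at 1727 and DES, which is also a smooth muscle marker.

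**Figure D1:**
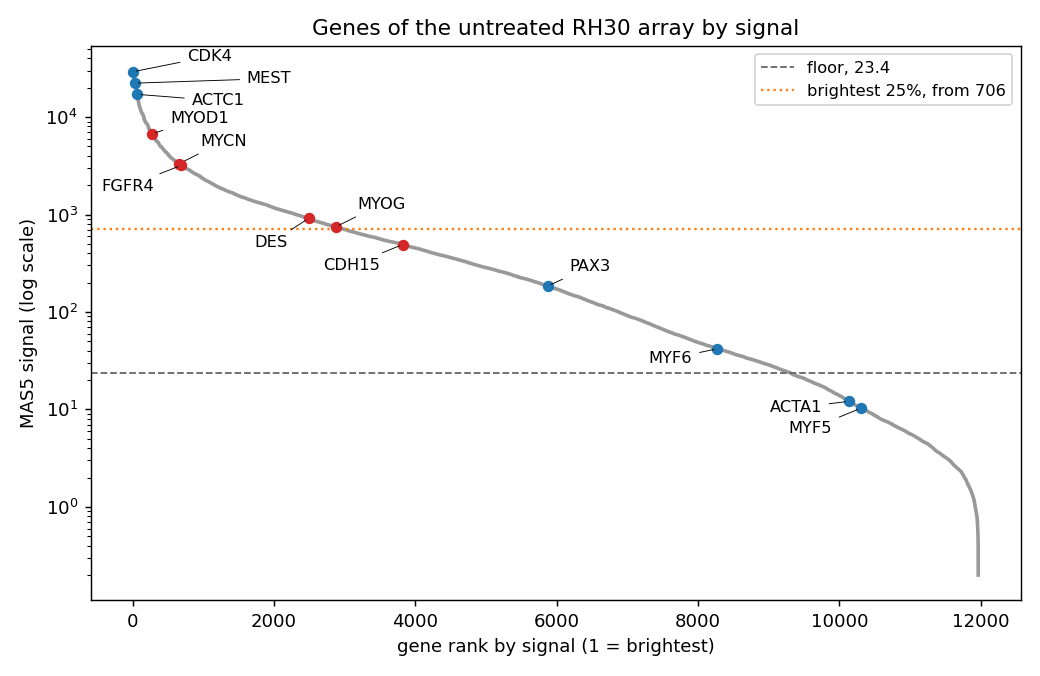
MAS5 signal (log scale) of the 11963 genes of the untreated array against their rank, with the 6 marker genes in red and other genes named in the text in blue. All 6 markers lie above the floor of 23.4 (dashed line), and CDH15 is the 1 marker below the start of the brightest 25% (dotted line).

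The lineage factors were mostly above the floor, as were most genes of the array. Of 51 myogenic regulators listed, 43 were measured. Of these, 5 (11.6%) lay below the floor and 13 (30.2%) were in the brightest 25%, against 22.1% and 25% of all genes, with a median of 376 against 173. Within the muscle bHLH family MYOD1 stood apart at 6715, MYOG followed at 748, MYF6 (also called MRF4) read 42.0 and MYF5 10.3. Each of these 4 genes has 1 probe set, so MYF5, which precedes or accompanies MYOD1 in muscle precursors, was the member below the floor. All 3 E proteins, the partners with which MYOD1 binds DNA, were in the brightest 25%: TCF12 (HEB) at 2114, TCF3 (E12 and E47) at 1637.5 and TCF4 at 1086. Their places depend on the probe set: the other one of TCF12 read 88.7, the 13 of TCF3 ran down to 11.0, and by the median of its probe sets TCF12 stayed in the brightest 25% at 1101 while TCF3 read 114 and TCF4 364.

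Antagonists and repressors of the same factors included 3 of 11 (27.3%) in the brightest 25%, ID3, SNAI2 and ID1, a share close to that of all genes. The ID proteins lack a DNA-binding region and sequester E proteins, and ID3 read 5478 and ID1 2883, whereas ID2 read 386 and ID4 54.5. SNAI2, a repressor that competes for E-boxes in myoblasts, read 3740, and its paralogue SNAI1 read 279. Other bHLH repressors lay in the middle of the array: HEY1, a Notch effector, at 438, BHLHE40 at 276.5, MSC (musculin) at 253, HES1 at 224 and TWIST1 at 55.2. None of the 11 measured antagonists or repressors was below the floor.

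Among the cofactors, MEF2C, a MADS box partner of the muscle bHLH factors, led with probe sets at 1336, 576.5 and 185. MEF2A read 697.5, SRF, the serum response factor that binds CArG boxes, 330, and MEF2D 78.3. EZH2, the histone methyltransferase that silences muscle genes in myoblasts, read 1647. SMARCD3, the chromatin remodelling subunit that accompanies MYOD1, read 1095, and CARM1 376.

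The genes that make the fusion were unequal on the array. FOXO1 read 1062 and 307 from its probe sets, PAX3 185, 125 and 7.3, and PAX7 40.4. FOXO1 thus reached the brightest 25% and PAX3 stood close to the median gene. Which of these probe sets read the fusion transcript and which the unrearranged genes was not tested. Of the 6 homeobox genes in the family of SIX2, 4 were measured. Of the factors upstream of the muscle bHLH genes in embryonic precursors, SIX2 read 1142 and SIX5, below the floor, 18.7. Of their cofactors of the EYA and DACH families, EYA2 read 664, DACH1 635, EYA1 481, EYA3 111 and EYA4 102. Of the 8 measured premyogenic homeobox and T-box factors none was in the brightest 25%. MEOX1, a somite factor, read 673 and PITX3 405, while LBX1, which marks migrating limb precursors, read 3.2, TCF21 5.6 and MEOX2 1.5.

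**Figure D2:**
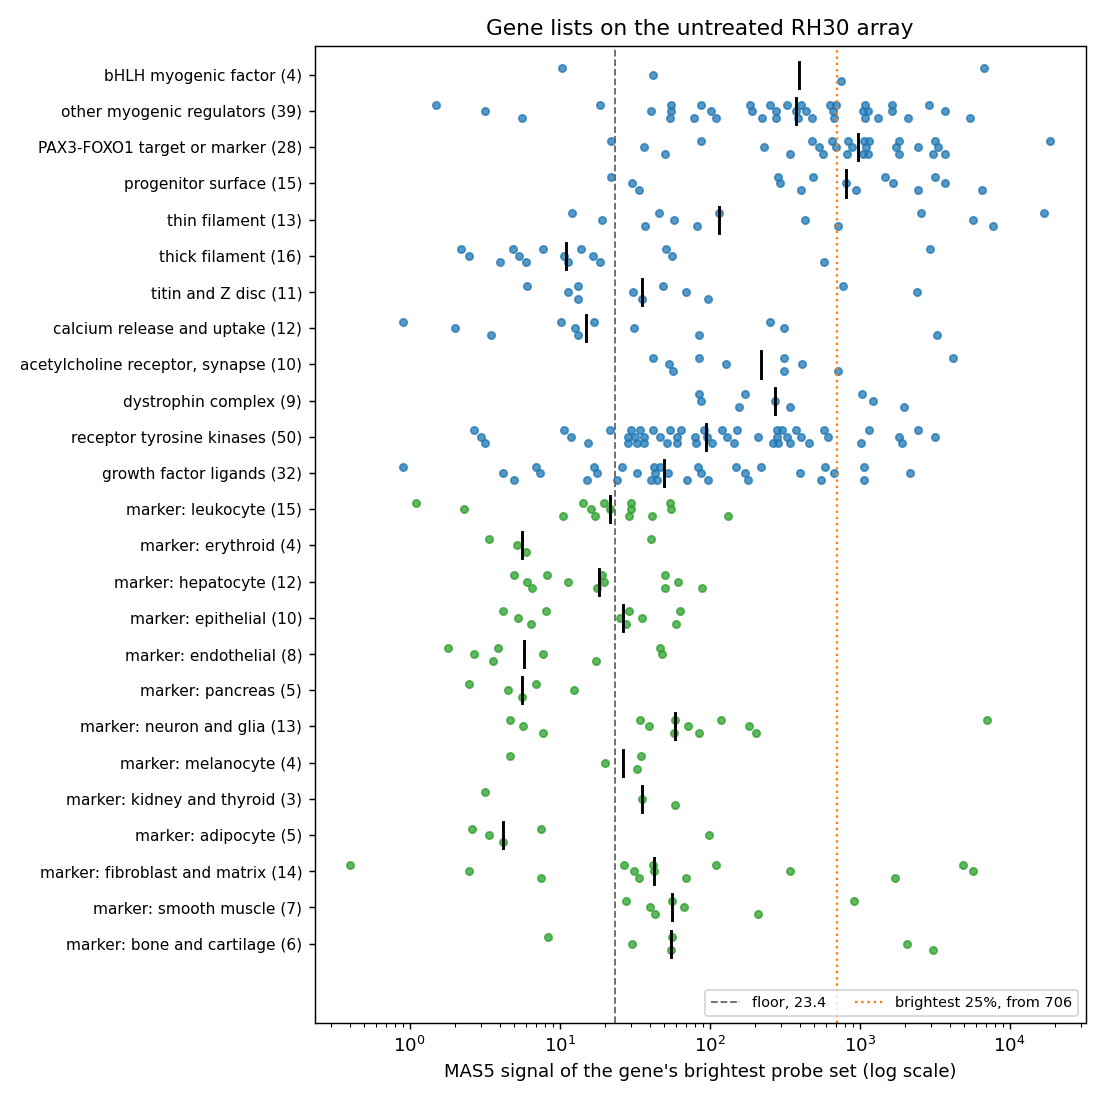
MAS5 signal (log scale) of every measured gene of each list, 1 point per gene, with the list's median as a bar, the number of genes in parentheses and markers of other cell types in green. Points of the PAX3-FOXO1 list centre on 976, those of the thick filament on 11.0, and markers of leukocytes, hepatocytes and endothelium lie on both sides of the floor and none above 133.

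Genes reported as targets or markers of PAX3-FOXO1 were mostly bright. All 28 were measured; 1 was below the floor and 17 (60.7%) were in the brightest 25%, with a median of 976. The list was compiled with the tumour type in mind, and some of its genes come from expression studies of such lines, so its brightness is a description. ASS1, the argininosuccinate synthase of arginine synthesis, was in the top 1% at 18737. CXCR4, the chemokine receptor of migrating muscle precursors, read 3702, 2053 and 1807 from its probe sets. DCX, doublecortin, a microtubule protein of migrating neurons used as a rhabdomyosarcoma marker, read 3073.5 and 1727. Further bright members were KCNS3 at 1838, the receptor tyrosine kinase ALK at 1833, ABAT at 1746, DAPK1 at 1151.5, NELL1 at 1131, FOXF1 at 1109, BMP5 at 1072 and POU4F1 at 1061.5.

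The same list had members at low signal. TFAP2B, a diagnostic marker of fusion-positive tumours, read 698 by its brightest probe set and 67.0 by the other. OLIG2 read 232, the cannabinoid receptor CNR1 87.7, NOS1 50.1, NHLH1 36.8 and CDH3, P-cadherin, 21.9. Of 3 genes used as markers of fusion-negative tumours, HMGA2 read 3421 and was brighter than 94.8% of genes, FBN2 (fibrillin 2) read 1206 by 1 probe set and 34.6 by the other, and EGFR read 153. HMGA2 thus ranked beside MYCN and FGFR4 on this array.

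Of 15 surface molecules of muscle precursors, 8 (53.3%) were in the brightest 25%, against 25% of all genes. Below the floor was 1 (6.7%, against 22.1%), the calcitonin receptor CALCR of quiescent satellite cells, at 21.9. ITGB1, the beta1 integrin, read 6524 by 1 of 5 probe sets and 40.8, 24.3, 4.8 and 2.1 by the others. MET, the receptor of hepatocyte growth factor, read 2449, 417, 387 and 92.9, and the syndecans SDC3 and SDC4 read 1673.5 and 941. NCAM1 (CD56) read 1475 by its brightest probe set and 51.6, 37.7 and 13.4 by the others. The count in the brightest 25% thus depends on the probe set. By the median of their probe sets ITGB1 stood above 25.6% of genes, MET above 69.4%, and NCAM1 read 44.65. VCAM1 and CD34, other markers of satellite cells or of muscle-derived progenitors, read 30.2 and 33.7, within the range of the other cell types. Of the fusion machinery, MYMX (myomixer), a muscle-specific membrane protein required for myoblast fusion, read 2162, CAV3, the muscle caveolin, 931, and DYSF, the membrane repair protein dysferlin, 549. KIRREL1 at 7.3, ADGRB1 at 4.7 and ADAM12 at 21.1 were below the floor. Of the intermediate filaments, VIM read 17131, NES (nestin) 5776.5, DES 911 and SYNM 680.5.

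The contractile apparatus was split by compartment. Of 40 measured sarcomere genes 18 (45.0%) lay below the floor and 8 (20.0%) in the brightest 25%, with a median of 36.3, against 22.1%, 25% and 173 over all genes. In the thin filament 2 of 13 were below the floor and 5 in the brightest 25%. ACTC1, cardiac alpha-actin, which is also the alpha-actin of developing skeletal muscle, read 17091 and was the 1 sarcomere gene of the top 1%. Of the slow troponins, TNNT1 at 7793 and TNNI1 at 5710 were bright, but TNNC1, the troponin C of slow and cardiac muscle, read 37.1. TPM2, beta-tropomyosin, read 2552. ACTA1, the alpha-actin of mature skeletal muscle, read 12.1, and the fast troponins TNNI2, TNNC2 and TNNT3 read 115.1, 57.9 and 19.3.

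The thick filament was the other extreme, with 12 of 16 genes below the floor and 1 in the brightest 25%. All 7 sarcomeric myosin heavy chain genes were below it, from MYH7 (slow and cardiac) at 18.6 and MYH8 (perinatal) at 16.7 to MYH6 (cardiac) at 2.5 and MYH3 (embryonic) at 2.2. The bright exception was MYL4, the light chain of embryonic and atrial muscle, whose 4 probe sets read 2928, 2884, 2570 and 618. All 4 carry the suffix _x_at, for possible cross-hybridisation. MYBPC2, the fast myosin-binding protein C, read 582.5, and the adult light chains MYL1, MYL3 and MYL2 read 50.9, 56.2 and 4.9. In the Z disc, PDLIM3 read 2405 and TTN, titin, 774, while TCAP, LDB3, MYOT and MYOZ3 were below the floor at 11.4, 13.2, 13.3 and 6.1. Most of these dim genes have 1 probe set, and of the 36 muscle genes below the floor in the 7 lists only 6 have 2 or more.

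Calcium handling and the synapse differed in the same array. Of 12 genes of calcium release and uptake 7 lay below the floor, among them TRDN (triadin) at 0.9, CASQ1 (calsequestrin) at 2.0 and CACNA1S, the voltage sensor of skeletal muscle, at 13.3. ATP2A2, the calcium pump of slow muscle and of most cells, read 3289, its fast-muscle paralogue ATP2A1 312 and RYR1, the calcium release channel, 253. None of 10 genes of the acetylcholine receptor and synapse was below the floor, where 22.1% of all genes lay. CHRNA1, the receptor's alpha subunit, read 4176 and 418.5 from its probe sets, and RAPSN, which clusters the receptor, 715. The delta subunit CHRND read 129.6, the fetal gamma subunit CHRNG 84.6 and the adult epsilon subunit CHRNE 57.0. ACHE read 53.6 and MUSK 42.0, and all of these were within the range of the other cell types.

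The dystrophin complex had no member below the floor among 9 measured, where 22.1% of all genes lay. In the brightest 25% were 3 (33.3%), not far from the share of all genes. They were SGCB (beta-sarcoglycan) at 1972 and 160, SGCE (epsilon-sarcoglycan) at 1229 and DMD (dystrophin) at 1045. The other probe sets of DMD read 84.4 and 26.8. SGCA, the muscle-specific alpha-sarcoglycan, read 273. In muscle metabolism PFKM, the muscle phosphofructokinase, read 1750 and ENO3, beta-enolase, 1047, followed by MB (myoglobin) at 491 and CKM, the muscle creatine kinase, at 188. PYGM, the muscle glycogen phosphorylase, read 56.9, PGAM2 6.2 and PPARGC1A, a regulator of mitochondrial genes, 4.4. Across sarcomere, excitation, dystrophin complex and metabolism, 27 of 83 measured genes (32.5%) were below the floor and 16 (19.3%) in the brightest 25%. The shares of all genes were 22.1% and 25%.

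The upstream regions of 4 genes are shown because the pair of alpha-actins fell at opposite ends of the array, and because MYOG and CDK4 are the differentiation factor and the cell-cycle kinase of these cells. They are the 250 bases before the RefSeq start furthest upstream in GRCh38.p14, all on the minus strand, read 5′ to 3′ along the gene: MYOG at chr1:203086013-203086262, ACTC1 at chr15:34795550-34795799, ACTA1 at chr1:229434095-229434344 and CDK4 at chr12:57752311-57752560. Capitals mark an E-box (CANNTG) in MYOG, the CArG box, the sequence to which SRF binds, in both actins, and the E-box CACGTG, to which MYC-family proteins bind, in CDK4. Motifs were searched on both strands, and CACGTG is also counted as CANNTG.
MYOG: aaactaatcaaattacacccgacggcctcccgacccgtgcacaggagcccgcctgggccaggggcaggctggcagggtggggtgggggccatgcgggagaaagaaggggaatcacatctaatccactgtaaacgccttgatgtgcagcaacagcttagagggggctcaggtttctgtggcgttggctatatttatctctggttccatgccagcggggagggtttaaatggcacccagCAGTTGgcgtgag
ACTC1: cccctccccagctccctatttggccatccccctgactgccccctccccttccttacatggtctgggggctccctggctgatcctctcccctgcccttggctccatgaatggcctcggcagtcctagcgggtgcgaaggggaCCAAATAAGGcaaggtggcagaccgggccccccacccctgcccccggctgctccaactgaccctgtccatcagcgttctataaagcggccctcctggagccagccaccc
ACTA1: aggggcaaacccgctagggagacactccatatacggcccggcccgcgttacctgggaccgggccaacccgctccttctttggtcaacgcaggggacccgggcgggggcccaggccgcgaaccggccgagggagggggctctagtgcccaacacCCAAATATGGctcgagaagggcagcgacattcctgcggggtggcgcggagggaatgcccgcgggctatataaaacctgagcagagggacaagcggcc
CDK4: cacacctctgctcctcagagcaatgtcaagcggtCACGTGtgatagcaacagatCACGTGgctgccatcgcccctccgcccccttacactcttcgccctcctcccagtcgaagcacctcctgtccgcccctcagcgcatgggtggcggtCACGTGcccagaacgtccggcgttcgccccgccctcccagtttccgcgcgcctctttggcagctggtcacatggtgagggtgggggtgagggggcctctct
The bright ACTC1 and the dim ACTA1 each hold 1 CArG box and 1 TATAAA in this window. The E-box CANNTG marked in MYOG is common: 56.3% of all upstream windows hold at least 1. CACGTG occurs 3 times upstream of CDK4, and 8.32% of the 9562 genes with an upstream sequence hold it at least once, against 7.55% of the 106 such genes of the top 1%. The CArG box occurs in 1.23% of all upstream windows and in 4 of 26 sarcomere windows (15.4%): ACTC1, LDB3, ACTA1 and MYOM1, of which ACTC1 alone was above the floor. TATAAA was found in 8.08% of all windows and in 11 of those 26 (42.3%), namely 7 of the 12 below the floor and 4 of the 14 above it. The sarcomere windows held a median of 3.5 CpG dinucleotides against 19 over all genes, and genes below the floor held 7 against 22 for the brightest 25%. A motif match is a run of letters and not a measured binding site.

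Growth factor receptors were mostly dim, with a few bright ones. The list holds 50 measured genes, nearly all receptor tyrosine kinases, with IGF2R and NGFR beside them as receptors of the same ligands without a kinase domain. Of these, 7 (14.0%) were below the floor and 6 (12.0%) in the brightest 25%, against 22.1% and 25% of all genes, with a median of 94.2. The 6 were FGFR4 at 3191, MET at 2449, IGF2R at 1910.5, ALK at 1833, RYK, a Wnt-binding pseudokinase, at 1149.5 and FGFR2 at 1020. By the median of each gene's probe sets, 3 remained in the brightest 25%, FGFR4 at 2108, IGF2R at 1333 and ALK at 1154. Without the probe sets whose suffix marks possible cross-hybridisation, 36 receptors were left, and the 3 in the brightest 25% were FGFR4, MET and EPHB4. ALK, IGF2R and RYK have only probe sets with such a suffix and dropped out.

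Within the FGF receptors, FGFR1 read 279.5 at most over 6 probe sets and FGFR3 122. FGFR2 has 10 probe sets, which ran from 1020 and 715 down to 2.8, so its place depends on the probe set taken. IGF1R, the receptor through which insulin-like growth factors drive growth of this tumour type, read 345, 237.5 and 17.6, INSR 131 and INSRR 10.7. Of the PDGF receptors, PDGFRA, found on mesenchymal precursors, read 303, 61.1 and 1.7 and PDGFRB 81.1. The EGF receptor family was led by ERBB3 at 281, ahead of EGFR at 153, ERBB2 at 91.5 and ERBB4 at 28.6. AXL, of the TAM family, read 578, and among the ephrin receptors EPHB4 read 619.5 and EPHA2 462. The VEGF and angiopoietin receptors of endothelium were dim: KDR read 36.4, FLT1 15.5, FLT4 11.9, TEK 46.7 and TIE1 2.7. KIT at 28.4 and FLT3 at 3.0, receptors of blood cell precursors, were also within the range of the other cell types.

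**Figure D3:**
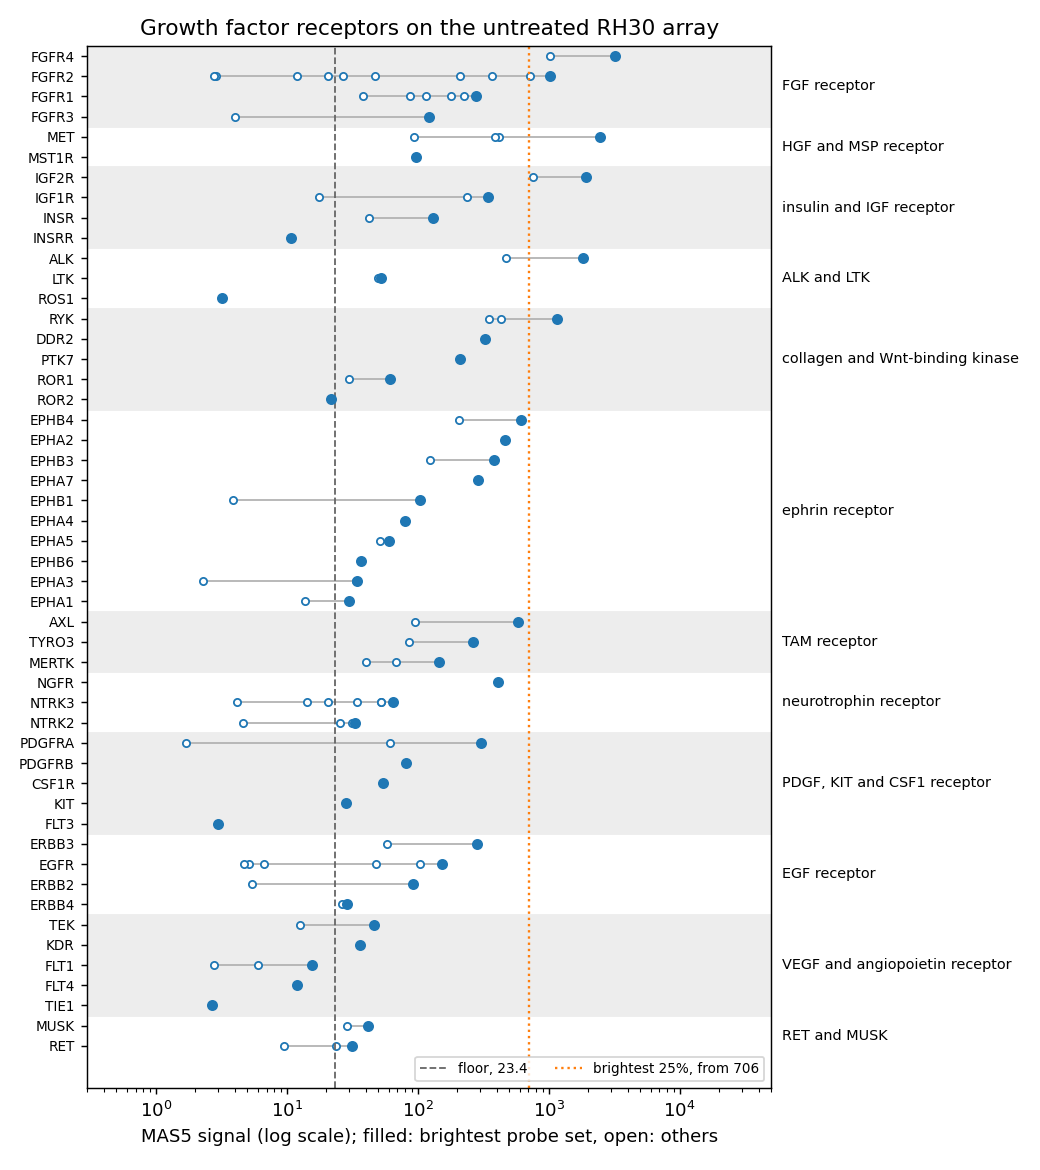
MAS5 signal (log scale) of every probe set of the 50 measured growth factor receptors, filled for the brightest probe set of a gene and open for the others, grouped by ligand family. FGFR4, MET, IGF2R, ALK, RYK and FGFR2 pass the start of the brightest 25% (dotted line), and the probe sets of FGFR2 spread from 2.8 to 1020.

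Among 39 other signalling receptors 11 (28.2%) were in the brightest 25% and 5 below the floor. NOTCH2 read 2226 and 1858, NOTCH3 675.5, NOTCH1 409 and NOTCH4 80.7. PTCH1, the Hedgehog receptor that is itself a target of the pathway, read 2081 by 1 probe set and 125.8 and 7.1 by the others. SMO, its signalling partner, read 202. ACKR3, which like CXCR4 binds CXCL12, read 1443, GHR, the growth hormone receptor, 1370, and IL6ST, the shared subunit of the interleukin 6 family, 1035. The growth factors themselves had a median of 49.8: of 32 measured, 8 (25%) were below the floor and 3 (9.4%) in the brightest 25%. Those 3 were FGF13, an intracellular member of the FGF family, at 2166, VEGFA at 1066 and PDGFC at 1063. HGF, the ligand of MET, read 42.4, CXCL12 32.9 and IGF1 44.3, each within the range of the other cell types. Of 3 ligands listed under IGF, 2 were measured, IGF1 and INS (insulin) at 7.0, and no value is given here for IGF2.

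Paralogue families showed how many relatives were bright together. Of 49 families with 2 or more measured members, 9 had none in the brightest 25%, 22 had exactly 1 and 18 had 2 or more. In 11 families the brightest member read at least 10 times the next, a gap near that of the widest 10% of genes between their own probe sets, and in 22 it was within 2-fold, close to the median gap between probe sets of a single gene. The 11 were the families of SIX2, troponin I, troponin T, acetylcholine receptor, enolase, aldolase, INK4, AKT, elongation factor 1 alpha, galectin and the pair CDK4 and CDK6. AKT1, for example, read 1157 and AKT2 40.6, EEF1A1 25652 and its muscle and neuronal paralogue EEF1A2 54.3, and LGALS1 13775 and LGALS3 78.7. ALDOA, the aldolase of muscle and of most cells, read 10554 and ALDOC, of brain, 35.1. Some of the 11 families had members that were not measured, so the gap to those is not known. Measured were 4 of 6 in the family of SIX2, 3 of 4 in INK4, and 2 of 3 each in troponin T, aldolase and AKT. By their second probe sets, SIX2 read 276, CHRNA1 418.5 and CDKN2A 643, against 111.6 for SIX3, 313.1 for CHRNB1 and 138 for CDKN2D. Those gaps were under 10 times. ENO1, ALDOA and EEF1A1 kept theirs, with second probe sets at 13527, 10123 and 23793.

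Cell-cycle families held some of the wide gaps. CDK4 read 29163 and CDK6 152, although both kinases pair with D-type cyclins. All 3 D-type cyclins were in the brightest 25%: CCND2 at 10773 with other probe sets at 2375 and 518, CCND3 at 2230 and CCND1 at 975. CDKN2A, the locus of the CDK4 inhibitor p16, read 3563, 643 and 46.1 from its probe sets, its neighbour CDKN2B 7.4 and CDKN2D 138. CDKN1B (p27) and CDKN1A (p21) read 1117 and 1082, and CDKN1C (p57) 32.7. RB1, the substrate of CDK4, read 824.

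Other families had more than 1 bright relative. MYC read 1904 beside MYCN at 3313, and MYCL 148; the ratio of the first pair, 1.74, is smaller than the median gap between probe sets of a single gene. HDAC2 and HDAC1 read 6309 and 4082, and DNMT1 read 2058 against 534 for DNMT3B and 41.2 for DNMT3A. SOX9 and SOX4 read 3102.5 and 2879. GLI1, both a mediator and a target of Hedgehog signalling, read 1757, against 282 for GLI3 and 225 for GLI2. Of the classical cadherins, CDH11 read 1083, CDH2 (N-cadherin) 668, CDH15 492 and CDH1, the cadherin of epithelium, 27.9. Of the non-muscle myosins MYH10 read 4561 and MYH9 1039.5, in contrast to the sarcomeric heavy chains below the floor.

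**Figure D4:**
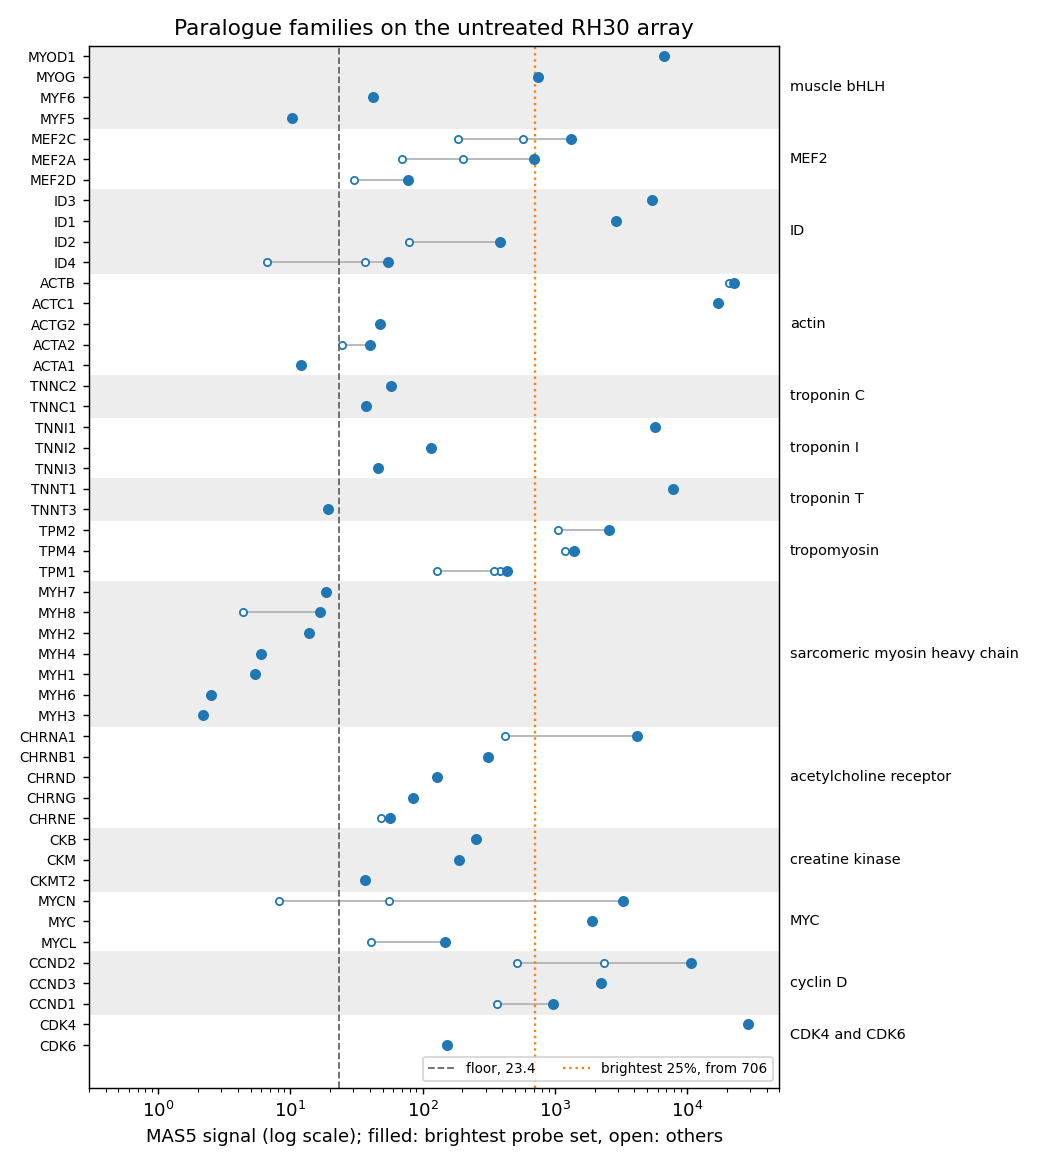
MAS5 signal (log scale) of every probe set in 14 of the 49 paralogue families, filled for a gene's brightest probe set and open for the others. ACTC1 and ACTA1 lie at 17091 and 12.1, all 7 sarcomeric myosin heavy chains lie left of the floor (dashed line), and CDK4 lies at 29163.

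The top 1% was made mainly of genes that every growing cell uses. These 120 genes held 21.5% of the summed signal of all genes. Ribosomal protein genes were 48 of them, of 58 measured (82.8%), led by RPS23 at 29588, RPL31 at 28513 and RPL37A at 28454. Of the 48, 38 were represented by probe sets with a suffix for possible cross-hybridisation, as were 94 of all 120 genes of the top 1%. Over the array, 8964 of the 19064 probe sets that name 1 gene carry such a suffix. Without such probe sets 12 ribosomal protein genes were in a top 1% of 84 genes. That setting keeps 8369 genes and leaves out every gene that has no other probe set. The cytoskeleton gave 9 of 44 measured, with TUBA1B at 26167, ACTB at 22787 and TUBB at 19311. Chaperones and folding enzymes gave 6, led by PPIA (cyclophilin A) at 25886, NPM1 (nucleophosmin) at 21462 and HSPD1 at 16986. Glycolysis gave 5 of 11 measured, GAPDH at 21541, LDHA at 18900, ENO1 at 16989, LDHB at 16417 and PGK1 at 12404. Translation factors gave 4, among them EEF1A1, and the respiratory chain 5 of 76, led by CYCS (cytochrome c) at 13725.

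Some members of the top 1% belong to no such class. CDK4 was the second brightest gene of the array, by its only probe set, which carries the suffix _s_at. MEST, an imprinted gene of mesoderm, read 22274, TPT1, a growth-associated protein, 27239 and ASS1 18737. SHMT2, the mitochondrial serine hydroxymethyltransferase, read 15585 and RRM2, the ribonucleotide reductase subunit made in S phase, 12738. Just inside the limit of the top 1% lay TUBB4B at 11384, ATP5MJ at 11358 and SLC25A3 at 11335, and just outside it HINT1 at 11326, RANBP1 at 11323 and NME1 at 11274.5. At the floor, LRRC61, MX2 and NR4A3 read 23.4 and CNTNAP2 and SPAG1 23.2.

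CDK4 lies on chromosome 12 among other bright genes. Its neighbours were examined after its value had been seen. Of the 15 measured genes centred on CDK4, 10 were in the brightest 25%, 2 in the top 1% and 0 below the floor, and their median signal was 2409, above that of 91.9% of genes. No window of 15 genes in any of 11610 placed along 23 chromosomes had a higher median, and the highest on another chromosome was above 88.0% of genes, on chromosome 3. The second gene of the top 1% was OS9, a protein of endoplasmic reticulum quality control, at 12588 and 6238 from its probe sets. CTDSP2, a small phosphatase, read 7929 and 5433, and TSFM, a mitochondrial elongation factor, 7576 and 1434. PIP4K2C read 3213, METTL1, a tRNA methyltransferase, 2599, EEF1AKMT3 2449, TSPAN31 2409 and CYP27B1, the vitamin D hydroxylase, 2037. AGAP2 at 60.0 and SLC16A7 at 69.7 were dim members of the same stretch, and DTX3 at 211 stood near the median gene. Farther along the chromosome, GLI1 at 1757 and SHMT2 at 15585 lay on 1 side and HMGA2 at 3421 on the other, with KIF5A at 13.5 and WIF1 at 7.0 among them. Amplification of the region around CDK4 is known in alveolar rhabdomyosarcoma. DNA copy number was not measured here, and its part in these signals was not tested.

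**Figure D5:**
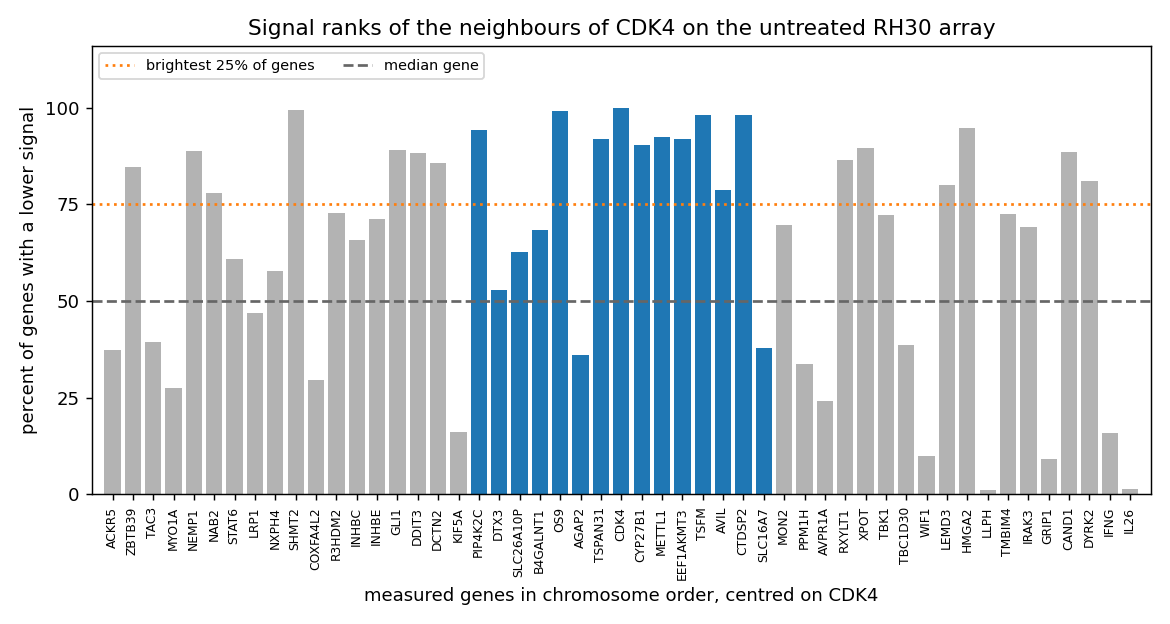
Percent of genes with a lower signal, for measured genes in chromosome order on both sides of CDK4, with the 15 genes centred on CDK4 in blue. Of the blue bars 10 reach the brightest 25% (dotted line), while AGAP2 and SLC16A7 lie below the median gene (dashed line).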

How the data were processed

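Biotin-labelled RNA of RH30 cells, prepared by a one-cycle procedure per the labels' protocols, was hybridised to expression arrays. The authors deposited 1 linear signal intensity for each probe set. The submitters' processing notes name MAS5 and GCOS as tools; scanner files and detection calls were not used here. MAS5 scales every array by 1 factor, and the 2% trimmed mean of the deposited intensities of this array was 500.2. The ratio of the 3′ to the 5′ control probe set was 1.02 for GAPDH and 2.11 for beta-actin.

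Of 22277 probe sets, 62 were controls. In GEO's platform annotation 19064 name 1 gene, 1043 several and 2108 none, and the first kind was used. Of these, 19052 matched the RefSeq table of GRCh38.p14 by Entrez identifier, which gave current symbols and gene order, and 12 kept the annotation's name. The floor, the brightest 25% and the top 1% are ranks of deposited signals with no further normalization. Nothing was tested, since each condition has 1 array, and precision is limited by that number. The procedure was tested on simulated data.

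The markers, lists and families were chosen with earlier results of these data known. Genes could be named, and not all of them are, if they were among the 40 brightest, the markers, the brightest and dimmest members of each list and of each role in it, all members of small lists and of families, the brightest of each function class, or the genes next to a limit; which of these to print was decided with their values seen. The neighbours of CDK4, genes of the top 1% outside any class and the probe set disagreements were chosen after their values were seen. Alternatives were the median and the second brightest probe set of a gene, no probe sets with the suffix _x_at or _s_at, other floors and other limits. Scripts ran in Python 3.11.15 with pandas 2.3.3 and numpy 2.4.6; scipy 1.17.1 and, for plots, matplotlib 3.10.9 were also used.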

Additional observations from a re-analysis of the deposited data

How the results depend on the processing

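No paired analysis was possible because each condition has 1 array, and for the same reason no replicate could be left out. Of 45 counts recomputed under alternatives, 22 stayed within 1.5 times the reported count and 23 did not. By the median of each gene's probe sets, 3 growth factor receptors in place of 6 were in the brightest 25%. By the second brightest probe set, which exists for 4310 genes, 1109 genes were below the floor, 12 ribosomal protein genes and 0 sarcomere genes were in the top 1%, 18 of 19 myogenic regulators were above the floor and 3 in the brightest 25%, 3 of 10 sarcomere genes were below the floor, and 11 families had exactly 1 bright member. Those counts are over fewer genes by construction. Without probe sets with the suffix _x_at or _s_at (8369 genes), 12 ribosomal protein genes were among the 84 genes of the top 1%. Of 28 myogenic regulators left, 23 were above the floor and 8 in the brightest 25%. The brightest 25% then held 3 of 36 receptors and 0 of 54 markers of other cell types. Sarcomere genes numbered 2 in the top 2% and 0 in the top 0.5%. With the pooled 50th percentile (117) as floor, 5341 genes and 30 sarcomere genes were below it. In the brightest 50% were 29 myogenic regulators, 19 receptors and 3 markers of other cell types, with 12 families holding exactly 1 such member, and in the brightest 10% were 5 myogenic regulators and 2 receptors. DES was above 79.2% of genes by its brightest probe set and above 3.67% by its second, MYCN above 94.5% and 37.4%, and MET above 92.0% and 74.6%. The cause was not tested.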

Other observations

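Imprinted genes, expressed from 1 parental copy, included several of the brighter genes of the array. Of 15 measured, 7 (46.7%) were in the brightest 25% and 3 (20%) below the floor, against 25% and 22.1% of all genes. MEST read 22274, the retroelement-derived gene PEG10 read 7624 and 3267 from its probe sets and the zinc finger gene PEG3 9279 and 3534.5. PLAGL1, a zinc finger factor, read 2535, 1131 and 767, and the long non-coding RNA MEG3 1078 and 404. DLK1, the neighbour of MEG3 that is expressed from the other parental copy, read 3.0, NDN 16.4 and NNAT 13.4. The share of this class below the floor was close to that of all genes.

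HOX genes, which record position along the body axis, were mostly dim where measured. The array gave 9 of 10 HOXB genes and 7 of 9 each of HOXC and HOXD, but 1 of 11 HOXA genes. With their cofactors, 6 of 29 (20.7%) were below the floor and 2 (6.9%) in the brightest 25%. The shares of all genes were 22.1% and 25%. HOXB7 read 797, 637 and 331 from its probe sets and was the 1 measured HOX gene in the brightest 25%. HOXC6 read 593, HOXB2 450.1, HOXC4 368 and HOXB6 168, and the HOXD genes read 117 at most, with HOXD10 and HOXD12 at 1.8. Their cofactor PBX3 read 1273. Of 14 measured cancer-testis antigens, normally found in germ cells, MAGEA6 read 1048, MAGEC1 152 and MAGEA12 120.0, while PRAME read 31.8 and MAGEA4 3.5.

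Matrix genes were uneven. The cartilage collagen COL2A1 read 2061 and 871, beside SOX9, its activator, at 3102.5. The fibrillar collagens of fibroblasts read 344 for COL3A1, 70.0 for COL1A1 and 34 for COL1A2, and LUM (lumican) read 0.4. The smooth muscle genes ACTA2, TAGLN and MYH11 read 40.1, 27.8 and 43.1.

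Of 60 genes of the top 1% with 2 or more probe sets, 10 had a second probe set at least 10 times dimmer. HUWE1, a ubiquitin ligase, read 26177 by a probe set of the suffix _x_at and 1557, 57.0 and 47.5 by the others. RPS12 read 8.0 and RPS14 49.9 by their second probe sets. TRMT5, a tRNA methyltransferase, read 16799 from a single probe set of the suffix _x_at.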
